A study of Mus musculus with 8 samples.

Results

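Expression of 10 genes of neutrophils and of the growth factor that acts on them (S100a8, S100a9, Csf3r, Csf3, Ly6g, Mpo, Elane, Fpr1, Fpr2 and Cd177) was measured in pancreatic tumors grown in mice with and without complement component 3. The members were chosen by name from the 29968 genes of the count table, and all 10 were found. There were 4 tumors from wild-type (WT) mice and 4 from mice of the whole-body C3-/- line. All mice were C57BL/6J, male and 12 weeks old. In both genotypes, the pancreas tail received 250000 KPC cells in 50 µL of PBS, and tumors were taken at day 14. KPC denotes the FC1245 line, derived from the tumor of a mouse that carried LSL-Trp53 R172H/+, switched on in the pancreas by Pdx-1-Cre, a Cre recombinase under the Pdx-1 promoter. The injected cells kept an intact C3 gene, so that only the host lacked C3. The comparison asks whether loss of C3 from the host changed the RNA of these genes in the tumor. No tumor-free pancreas was analysed here, and all 8 libraries came from tumor.

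Neutrophils are short-lived phagocytes that are made in the bone marrow under the control of granulocyte colony-stimulating factor (G-CSF), which Csf3 encodes and which acts through the receptor encoded by Csf3r. The enzymes of their primary granules, among them myeloperoxidase (Mpo) and neutrophil elastase (Elane), are transcribed in promyelocytes and largely shut off before the cell leaves the marrow, whereas calprotectin (S100a8 and S100a9) and the formyl peptide receptors (Fpr1 and Fpr2) are still transcribed in mature cells. Cleavage of C3 leads on to C5a, a strong neutrophil attractant, and in pancreatic cancer neutrophils are a regular part of the infiltrate around the tumor cells. Several of the genes are shared with other cells: monocytes express S100a8, S100a9, Fpr1 and Fpr2, and stromal and tumor cells can make G-CSF.

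Total counts ran from 13.3 to 23.4 M per tumor. C3 itself was counted at 3370, 5652, 2998 and 7623 reads in the 4 WT tumors and at 2338, 2387, 1591 and 1842 in the 4 C3-/- tumors. In CPM (counts scaled to a common normalized library of 1000000 counts) the genotypes did not overlap, with 296 ± 100 CPM in WT and 111 ± 15.7 in C3-/- tumors (mean ± SD, n = 4 each here and below). This is a log2 fold change of -1.42 with an SE of 0.23, for which edgeR gave an adjusted p of 0.933 and DESeq2 one of 1.28e-05. Libraries stood apart in their cell markers. Pancreatic acinar genes summed to 2007 CPM in C3-/- replicate 1, and all 11 genes of that list were highest there. They summed to 203 to 566 CPM in WT tumors and to 39.6 to 67.3 CPM in C3-/- replicates 2 to 4. Without C3-/- replicate 1 all 10 tested acinar genes were lower in C3-/- tumors (median log2 fold change -5.29, 3 called by edgeR). Values given without that tumor therefore come with an acinar difference between genotypes. Red cell and platelet genes summed to 2181 CPM in WT replicate 3, and skeletal muscle genes to 15.4, 30.0 and 23.8 CPM in WT replicates 2 and 3 and C3-/- replicate 2, against 1406 to 3588 CPM in the other 5 tumors. As 6 of the 10 members peaked in C3-/- replicate 1, genotype differences of the 10 members are given with and without that tumor.

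The promoters of 4 members on which the results below turn are shown first, the calprotectin pair because their RNAs moved together and the 2 primary granule genes because their RNA was concentrated in a single tumor. Each sequence holds the 250 bases upstream of the annotated start of the canonical transcript, written 5′ to 3′ on the gene's own strand (GRCm39, the build also called mm39, GENCODE vM39). Capitals mark matches on either strand to 2 short patterns known from factors of the granulocyte lineage, TTNNGNAA for C/EBP proteins (N is any base) and GAGGAA for PU.1. The windows lie at chr3:90576035-90576284 on the plus strand for S100a8, chr3:90603072-90603321 on the minus strand for S100a9, chr11:87684157-87684406 on the plus strand for Mpo and chr10:79721831-79722080 on the plus strand for Elane.
S100a8: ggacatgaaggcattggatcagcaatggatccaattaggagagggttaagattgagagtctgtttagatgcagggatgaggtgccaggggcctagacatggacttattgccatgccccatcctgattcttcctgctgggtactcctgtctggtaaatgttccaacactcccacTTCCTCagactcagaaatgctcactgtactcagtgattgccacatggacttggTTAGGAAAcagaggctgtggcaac
S100a9: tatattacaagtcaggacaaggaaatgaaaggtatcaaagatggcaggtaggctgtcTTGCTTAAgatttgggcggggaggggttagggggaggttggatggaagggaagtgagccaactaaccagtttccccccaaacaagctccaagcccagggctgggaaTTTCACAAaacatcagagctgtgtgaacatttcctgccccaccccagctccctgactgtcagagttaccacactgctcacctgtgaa
Mpo: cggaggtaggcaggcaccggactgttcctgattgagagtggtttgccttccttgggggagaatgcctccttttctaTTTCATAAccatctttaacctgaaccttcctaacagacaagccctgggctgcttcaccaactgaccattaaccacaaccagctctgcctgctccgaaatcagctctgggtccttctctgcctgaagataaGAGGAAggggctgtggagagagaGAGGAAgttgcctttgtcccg
Elane: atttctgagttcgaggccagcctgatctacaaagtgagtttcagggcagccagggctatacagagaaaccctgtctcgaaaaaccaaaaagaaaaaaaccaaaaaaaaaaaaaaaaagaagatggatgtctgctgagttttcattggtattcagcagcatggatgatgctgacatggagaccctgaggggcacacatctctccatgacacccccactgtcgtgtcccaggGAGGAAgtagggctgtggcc

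In the S100a8 window the C/EBP pattern lay at -24 to -17 and the PU.1 pattern, on the opposite strand, at -77 to -72, counting back from the transcript start. The S100a9 window held the C/EBP pattern at -193 to -186 and at -87 to -80 and had no PU.1 match. The Mpo window held 1 C/EBP match and 2 PU.1 matches, and the Elane window held a PU.1 match at -20 to -15 and none for C/EBP. Over all 10 members, 9 windows held the C/EBP pattern and 6 held the PU.1 pattern, whereas 36.9% and 22.9% of 21770 promoters of the same length did. These are matches of letters only, the patterns do not overlap in the 4 windows, and no binding was measured.

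S100a8 and S100a9, the subunits of calprotectin, a calcium- and zinc-binding protein that makes up much of the neutrophil cytosol, were the most abundant members per kilobase of gene model. S100a8 (ENSMUSG00000056054, chr3:90576285-90577342, plus strand) was found at 10.3, 5.58, 24.3 and 12.8 CPM in WT replicates 1 to 4 and at 35.8, 9.02, 9.64 and 14.8 CPM in C3-/- replicates 1 to 4. S100a9 (ENSMUSG00000056071, chr3:90599939-90603028, minus strand), which is separated from S100a8 by 22596 bases, was found at 10.1, 5.50, 28.3 and 12.4 CPM in WT and at 44.2, 10.5, 9.77 and 14.1 CPM in C3-/- tumors. For both genes C3-/- replicate 1 was the highest tumor and WT replicate 3 the next, WT replicate 2 was the lowest, and the genotypes overlapped over most of their range.

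Means were 13.3 ± 7.93 CPM in WT and 17.3 ± 12.6 CPM in C3-/- tumors for S100a8, a difference of 0.39 on the log2 scale (SE 0.51, adjusted p = 0.999 by edgeR), and 14.1 ± 9.88 and 19.6 ± 16.5 CPM for S100a9, a difference of 0.49 (SE 0.57, adjusted p = 0.999). Neither difference exceeded the spread between tumors. Single tumors moved them: without C3-/- replicate 1 the log2 fold changes were -0.25 (SE 0.42) for S100a8 and -0.29 (SE 0.46) for S100a9, and without WT replicate 3 they were 0.85 and 1.07. As RNA was taken from whole tumor, fewer neutrophils and less RNA per neutrophil cannot be told apart for these or any of the genes below.

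The 2 calprotectin subunits kept a nearly fixed ratio. Their summed level varied 7.22-fold between tumors, from 11.1 to 79.9 CPM, while the ratio of S100a8 to S100a9 reads stayed between 0.809 and 1.05. It averaged 0.982 ± 0.0830 in WT and 0.925 ± 0.111 in C3-/- tumors (two-sided exact permutation p = 0.371). The lowest ratio, 0.809, was that of C3-/- replicate 1 (95% exact binomial interval 0.735 to 0.891, for counting error only), the tumor with the most reads of both genes. In neutrophils the protein subunits pair as a heterodimer.

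**Figure D1:**
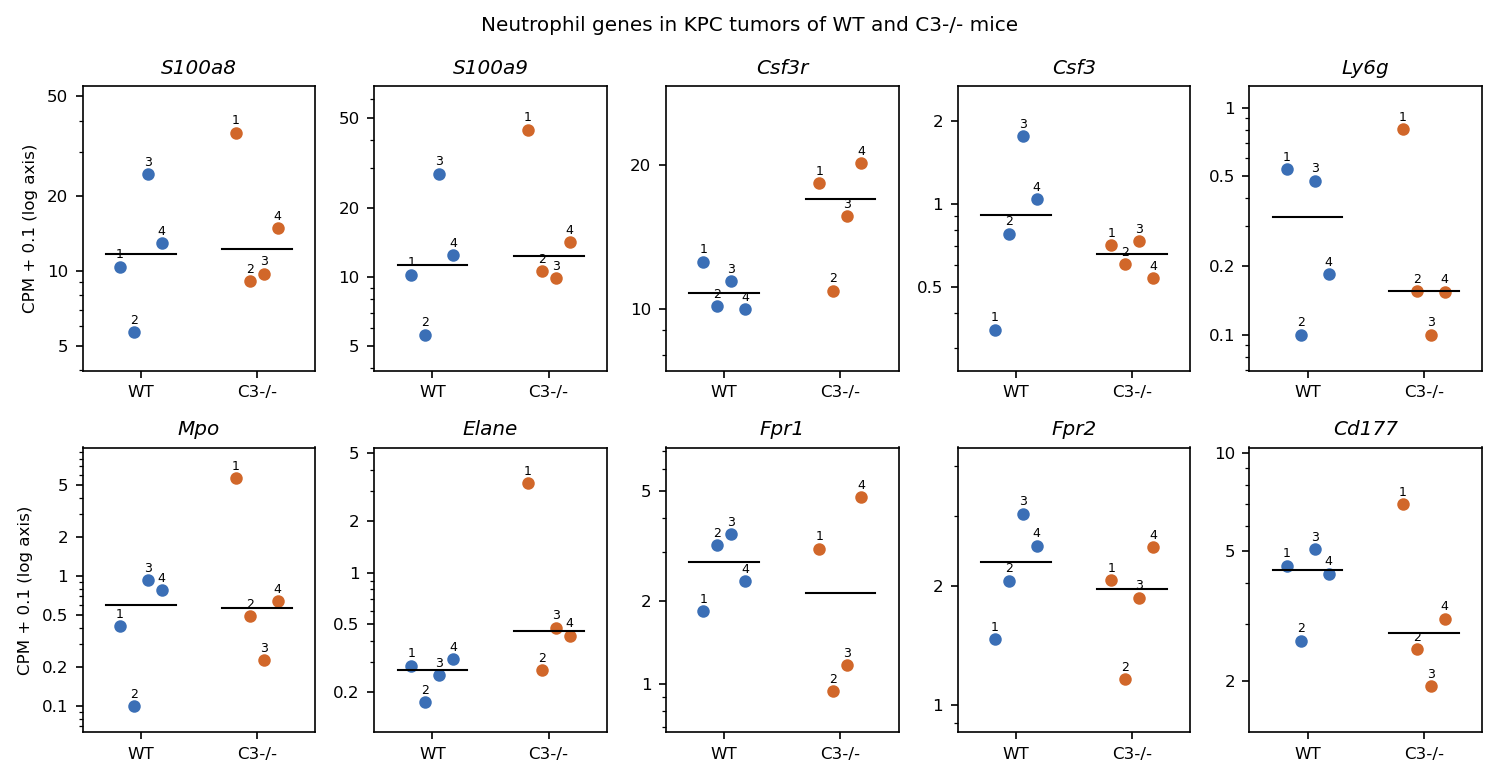
Level of each of the 10 neutrophil genes in every tumor, in CPM plus 0.1 on a log axis that differs between panels. Points are single tumors (blue, WT; orange, C3-/-), numbers are replicate numbers and lines are medians of 4 tumors. The orange point numbered 1 is the highest of all 8 tumors for S100a8, S100a9, Ly6g, Mpo, Elane and Cd177, and the genotypes overlap in every panel.

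Csf3r, the G-CSF receptor, which drives the production and survival of neutrophils, had the smallest unadjusted p of the 7 members that passed the low-count filter. Its gene (ENSMUSG00000028859, chr4:125918343-125938233, plus strand) was found at 12.4, 10.02, 11.3 and 9.87 CPM in WT and at 18.2, 10.8, 15.5 and 20.1 CPM in C3-/- tumors. C3-/- replicates 1, 3 and 4 lay above all WT tumors, and C3-/- replicate 2 lay within the WT range. Means were 10.9 ± 1.21 CPM in WT and 16.1 ± 4.02 CPM in C3-/- tumors, a log2 fold change of 0.57 (SE 0.21).

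That difference did not pass the test over all genes. Its unadjusted p was 0.0211 by edgeR's quasi-likelihood test, its adjusted p was 0.965, and the exact permutation test gave p = 0.0857, where the smallest p that 4 against 4 tumors allow is 0.0286. Csf3r was the 1 of 7 tested members with an unadjusted p below 0.05, and 3.03% of all 16610 genes tested reached that level in the same direction and 2.07% in the opposite one. The log2 fold change was 0.50 (SE 0.22) without C3-/- replicate 1 and lay between 0.44 and 0.72 with any 1 tumor left out. Leaving out C3-/- replicate 2, the only C3-/- tumor inside the WT range, separated the genotypes by construction. The exact permutation p was then 0.0286, the smallest it can be, and adds no support.

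Of the 7 tested members, Csf3r alone had a positive estimate both with and without C3-/- replicate 1. Beside it, Ptprc, the pan-leukocyte gene for CD45, was found at 21.4 ± 0.906 CPM in WT and 30.6 ± 9.20 CPM in C3-/- tumors, with every C3-/- tumor above every WT tumor, a log2 fold change of 0.52 and an adjusted p of 0.965. The 14 monocyte and macrophage markers summed to 1361 to 1710 CPM in WT and to 1124 to 2225 CPM in C3-/- tumors, and none of them passed the test. The part of other leukocytes in the Csf3r values was not tested.

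Csf3, which encodes G-CSF itself, was scarce, with 4 to 22 reads per tumor. Its gene (ENSMUSG00000038067, chr11:98592089-98594455, plus strand) was found at 0.249, 0.678, 1.66 and 0.936 CPM in WT and at 0.608, 0.504, 0.630 and 0.437 CPM in C3-/- tumors. WT tumors held both the lowest and the highest value, and the 4 C3-/- tumors lay close together inside that range. Means were 0.880 ± 0.591 and 0.545 ± 0.0904 CPM, which is -0.67 as a log2 fold change (SE 0.52, adjusted p = 0.999), and -0.73 (SE 0.59) without C3-/- replicate 1. Ligand and receptor therefore differed in the sign of their estimates, and neither passed the test. Leaving out WT replicate 1, the only WT tumor below the C3-/- tumors for Csf3, separated the genotypes by construction (exact permutation p = 0.0286). Without WT replicate 3 the mean log2 difference was -0.03.

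The receptors for formyl peptides, which steer neutrophils toward bacterial and mitochondrial peptides, were both detected in every tumor. Fpr1 (ENSMUSG00000045551, chr17:18096733-18104202, minus strand) was found at 1.74, 3.09, 3.39 and 2.26 CPM in WT and at 2.99, 0.840, 1.07 and 4.65 CPM in C3-/- tumors. Fpr2 (ENSMUSG00000052270, chr17:18108086-18114214, plus strand) was found at 1.37, 1.96, 2.94 and 2.43 CPM in WT and at 1.97, 1.06, 1.77 and 2.41 CPM in C3-/- tumors. C3-/- replicates 2 and 3 were the lowest for Fpr1 and C3-/- replicate 4 the highest, so that this genotype spanned the whole WT range.

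The log2 fold changes were -0.12 (SE 0.51) for Fpr1 and -0.27 (SE 0.35) for Fpr2, both with an adjusted p of 0.999, and -0.25 (SE 0.57) and -0.31 (SE 0.39) without C3-/- replicate 1. Fpr2 gave -0.085 without C3-/- replicate 2 and -0.095 without WT replicate 3. Unlike calprotectin, the formyl peptide receptors were not raised in C3-/- replicate 1, where Fpr2 was 1.003 times the median of the other 7 tumors and Fpr1 was 1.33 times. The 2 genes are 3883 bases apart. The model of Fpr2 overlaps that of Fpr3, a close relative on the same strand, so the split of reads among these paralogs is uncertain. They lie on chromosome 17, as does C3, with Fpr2 39396755 bases and Fpr1 39406767 bases from it.

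Cd177 (ENSMUSG00000052212, chr7:24443408-24459736, minus strand), a surface protein of a subset of neutrophils that binds the endothelium during their exit from blood, was found at 4.42, 2.56, 4.97 and 4.17 CPM in WT and at 6.88, 2.41, 1.83 and 3.01 CPM in C3-/- tumors. C3-/- replicate 1 was the highest tumor, and C3-/- replicates 2 and 3 were the lowest. C3-/- over WT, it gave -0.18 on the log2 scale (SE 0.41, adjusted p = 0.999), and -0.74 without C3-/- replicate 1 (SE 0.32, adjusted p = 0.451).

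Ly6g (ENSMUSG00000022582, chr15:75027089-75030975, plus strand), the surface antigen by which mouse neutrophils are usually recognized, was close to the limit of detection. It was counted at 7, 0, 5 and 2 reads in WT and at 15, 1, 0 and 1 reads in C3-/- tumors. C3-/- replicate 1 was again highest, and 4 of the 8 tumors held 1 read or none. A count of 0 allows up to 3 reads at these depths, so its absence from WT replicate 2 and C3-/- replicate 3 was not shown. With the low-count filter left off, the fitted log2 difference was -0.07 (SE 1.17, adjusted p = 0.999), and -2.34 (SE 1.36) without C3-/- replicate 1.

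Mpo and Elane, the primary granule enzymes, were near the floor in 7 tumors and well above it in the eighth. Mpo (ENSMUSG00000009350, chr11:87684407-87695239, plus strand), which makes hypochlorous acid, was counted at 5, 0, 11 and 16 reads in WT and at 120, 7, 2 and 10 reads in C3-/- tumors. Elane (ENSMUSG00000020125, chr10:79722081-79724049, plus strand), the serine protease neutrophil elastase, was counted at 3, 1, 2 and 5 reads in WT and at 69, 3, 6 and 6 reads in C3-/- tumors. C3-/- replicate 1 held most of the reads of both genes, at 14.3 times the median CPM of the other 7 tumors for Mpo and 17.3 times for Elane.

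In the fit without a filter, the log2 fold change was 1.85 (SE 0.97) for Mpo and 2.63 (SE 0.88) for Elane, both with an adjusted p of 0.810 and, for Elane, an unadjusted p of 0.00952 by edgeR's quasi-likelihood test. Without C3-/- replicate 1 these were -0.36 (SE 0.85) and 0.83 (SE 0.84). DESeq2 gave no adjusted p for either gene. Elane gave an exact permutation p of 0.0857, which ranged from 0.0286 to 0.257 with 1 tumor left out. The lowest was without C3-/- replicate 2, the 1 C3-/- tumor that overlapped WT, and was set by that choice. The highest was without WT replicate 2, and the exact permutation p was 0.143 without C3-/- replicate 1.

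Per kilobase of gene model (RPKM, here the CPM divided by the gene's length in kilobases), the calprotectin genes stood above the other members. S100a9 at 32.3 RPKM on average (10.5 to 84.6) and S100a8 at 22.0 (8.03 to 51.5) stood at the 90.2nd and 84.5th percentile of all genes tested, and their ranges overlapped. Csf3r followed at 3.75 RPKM (2.74 to 5.56), below S100a8 in all 8 tumors. Fpr1 at 1.89, Fpr2 at 1.53 and Cd177 at 1.33 RPKM came next.

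The lowest means were those of Elane at 0.601, Csf3 at 0.504, Mpo at 0.310 and Ly6g at 0.227 RPKM. From Csf3r downward, each gene's range over the 8 tumors overlapped that of its neighbor in this order, so these neighbors were not separated beyond their spread. The means of Elane and Mpo rest on C3-/- replicate 1, and by the median over tumors Csf3 stood above Elane.

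**Figure D2:**
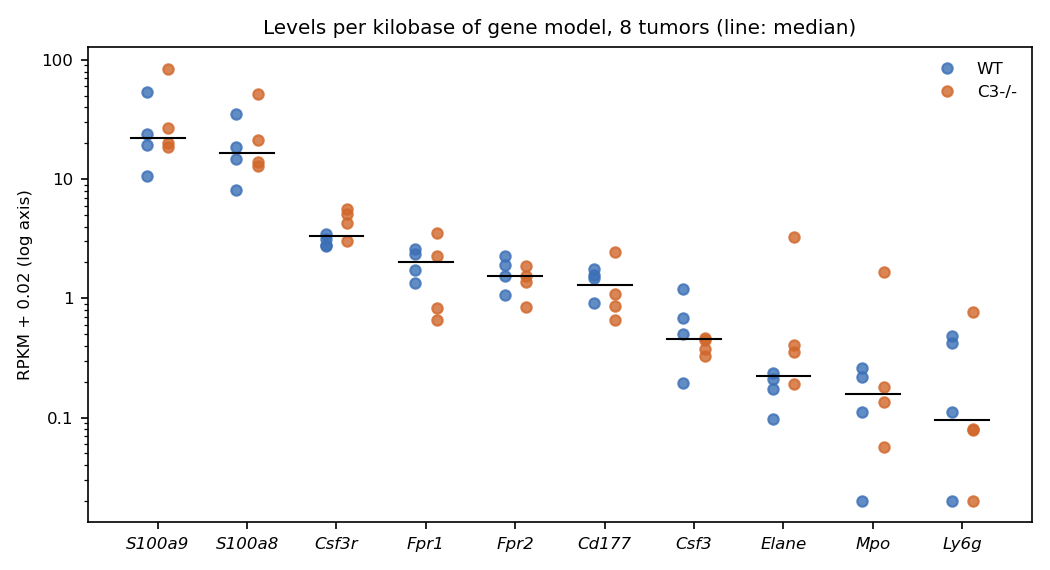
Level per kilobase of gene model for the 10 genes, in RPKM plus 0.02 on a log axis, ordered by the median over 8 tumors. Points are single tumors (blue, WT; orange, C3-/-) and lines are medians. S100a9 and S100a8 lie above all other members, and Mpo, Elane and Ly6g spread most widely.

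Of the 10 members, 7 passed the low-count filter and none of these was called at an adjusted p of 0.05 by edgeR, with 1 below an unadjusted p of 0.05. The background was the same, as edgeR called 0 of 16610 genes, or 0%. DESeq2 called 0 members and 16 of 20024 genes, or 0.0799%. No member had genotypes that did not overlap, against 2.28% of tested genes that were higher and 1.45% that were lower in every C3-/- tumor. Of the 7 tested members 3 had a positive and 4 a negative log2 fold change, with a median of -0.12. Without C3-/- replicate 1, 1 was positive and 6 were negative, with a median of -0.29. That tumor was picked because 6 of the 10 members peaked in it, so leaving it out lowers their estimates by construction. The median over all genes tested was -0.00 in each case, but those genes did not pick the tumor, so it cannot gauge that shift.

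**Figure D3:**
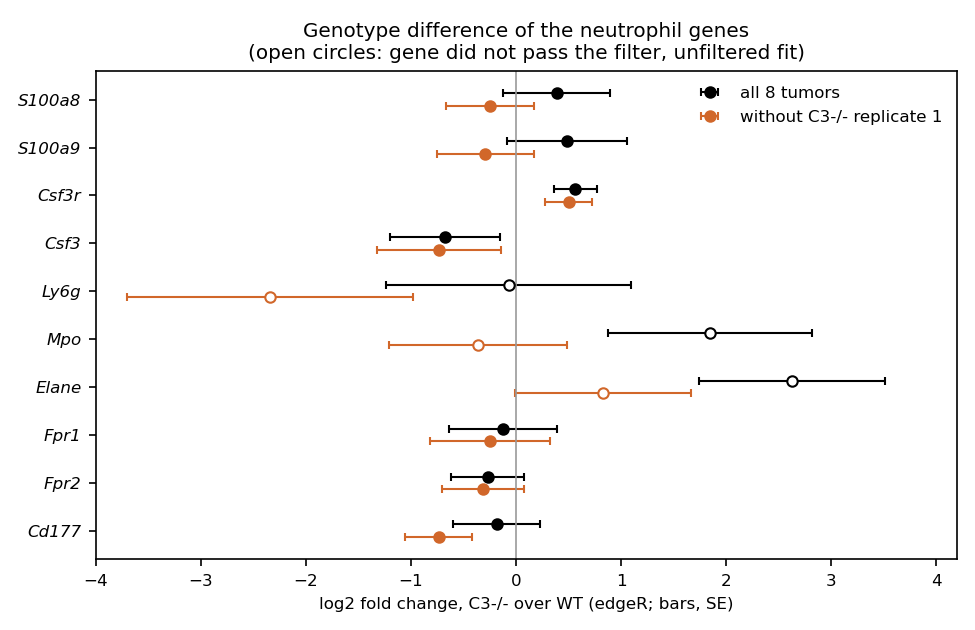
Log2 fold change of each member, C3-/- over WT, with SE, from all 8 tumors (black) and without C3-/- replicate 1 (orange). Open circles are the 3 genes below the low-count filter. S100a8, S100a9 and Mpo lie right of 0 with all tumors and left of it without that tumor, and Csf3r stays at 0.50 to 0.57.

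The members did not all vary together between tumors. C3-/- replicate 1 was the highest tumor for 6 of the 10 members, and for 3 of the 7 that passed the filter, a rank it held for 18% of all genes tested. The other 4 members peaked elsewhere, Csf3r and Fpr1 in C3-/- replicate 4 and Csf3 and Fpr2 in WT replicate 3. WT replicate 2 was lowest for 5 members. In C3-/- replicate 1 the median member stood at 2.87 times the median of the other 7 tumors, taken as at least 3 reads. There 6 of the 10 were more than 2-fold above it, against 5.26% of the genes with more than 3 reads in some tumor. This was not particular to the members. Of the red cell and platelet genes 7 of 9 were (median 3.57 times), and of the monocyte and macrophage markers 3 of 14. As that tumor was picked for its member peaks, part of the members' excess is built in.

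Correlations were computed for the 15 pairs among the 6 members with a median of at least 10 reads (S100a8, S100a9, Csf3r, Fpr1, Fpr2 and Cd177), over 8 tumors on log2 of CPM plus 0.1. S100a8 and S100a9 were the 1 pair to pass, with Pearson's r = 0.992 (permutation p = 0.000124, adjusted over the pairs 0.00186) and Spearman's rho = 0.929 (permutation p = 0.00223, adjusted 0.0335). Without WT replicate 3 and C3-/- replicate 1, the tumors farthest from the median of S100a8, r was 0.975 over the 6 left.

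Cd177 followed calprotectin less closely, with r = 0.790 against S100a8 (permutation p = 0.0185, adjusted 0.0827) and 0.775 against S100a9, and this rested on those 2 tumors, as r was 0.400 and 0.313 without them. Fpr1 and Fpr2 gave r = 0.790 (permutation p = 0.0203, adjusted 0.0827). Csf3r passed with none of the other 5 of these genes, with r from 0.109 to 0.490. Once values were centred on each genotype's mean, Cd177 gave r = 0.909 with S100a8 and 0.908 with S100a9, and 3 pairs passed. The permutation took no account of the centring, so those p-values can be too small. The centred r was not computed again without WT replicate 3 and C3-/- replicate 1.

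**Figure D4:**
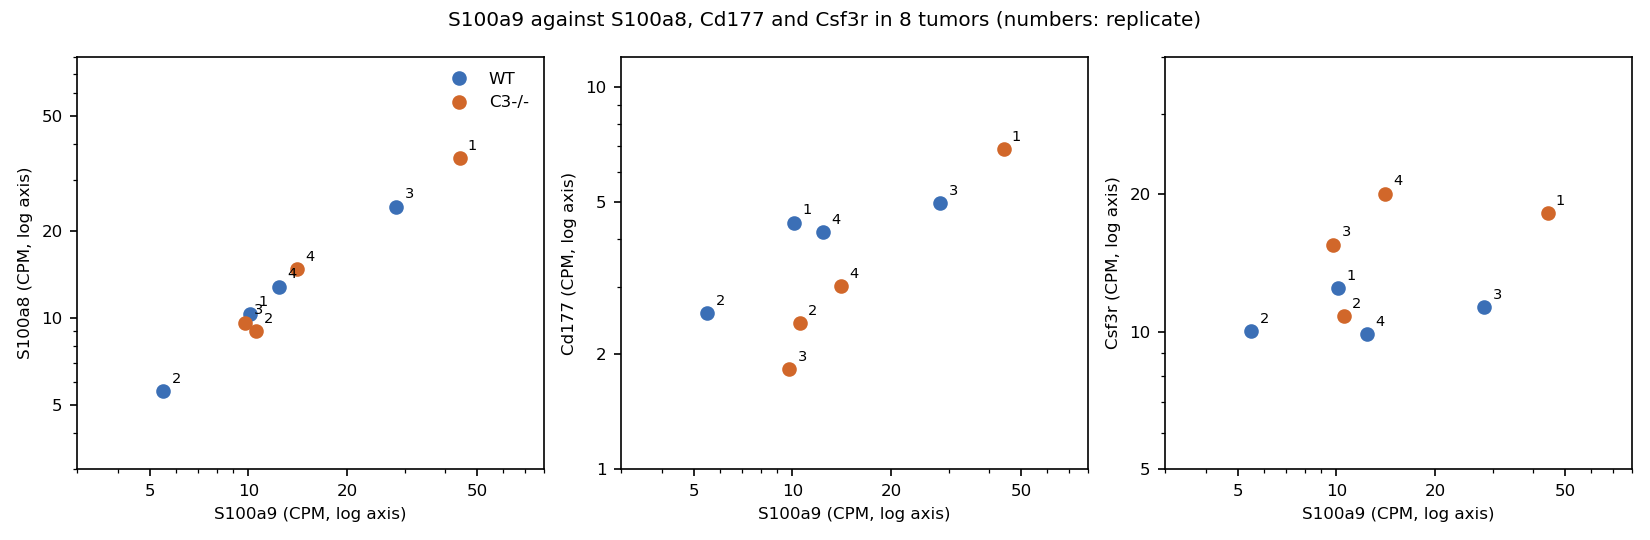
S100a9 on the horizontal axis against S100a8, Cd177 and Csf3r on the vertical axes, in CPM on log axes. Points are the 8 tumors (blue, WT; orange, C3-/-), with replicate numbers. S100a8 follows S100a9 with r = 0.992, Cd177 with r = 0.775 and Csf3r with r = 0.452.

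The genes outside the members whose pattern over the 8 tumors was most like a member's were found by the root mean square difference of log2 values after centring each gene on its own mean. For S100a9 these were C2cd4b (0.330), Gper1 (0.350), Ndufa12 (0.371), Rps25-ps1, Gpr132 (0.391), Gm5436, Zfp593, B3gnt5, S1pr4 and Rps2-ps8, against 0.138 for S100a8 and a median of 0.931 over all tested genes. For Csf3r they were Heyl (0.1004), Il10ra (0.105), Rab44 (0.119), Cyth4 (0.129) and Tifab (0.132), against a median of 0.476. For Csf3 they were Il11 (0.158), Gm9234, Ndp (0.219), Rpl17-ps10 and the unnamed gene ENSMUSG00000120717, against a median of 0.701. Each likeness is a description over the same 8 libraries.

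Genes of the same lineage were taken from 7 lists, and edgeR called none of them. In the primary granule list, 7 of 9 genes were in the table and 2 passed the filter, Serpinb1a, an inhibitor of elastase (176 ± 54.3 CPM in WT, 136 ± 19.2 in C3-/-, log2 fold change -0.38), and Prtn3, the protease proteinase 3 that lies 3072 bases from Elane (3.72 ± 1.72 and 2.81 ± 1.74 CPM, -0.39). Both had an adjusted p of at least 0.985. Without C3-/- replicate 1 the log2 fold changes were -0.41 and -0.90. In that tumor, 5 of the 7 genes, Mpo and Elane among them, stood more than 2-fold above the median of the other tumors, taken as at least 3 reads. The share was 7 of 9 for red cell and platelet genes and 5.26% for all genes with more than 3 reads in some tumor.

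Among those primary granule genes, Ctsg, encoding cathepsin G, was counted at 43 reads in C3-/- replicate 1 and at 0 to 2 in the others. Ms4a3, a gene of granulocyte and monocyte progenitors, was counted at 15 reads there and at 0 to 3 elsewhere. These 2 genes, like Camp below, were chosen after their values were seen.

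Secondary and tertiary granule genes, which are transcribed later in the marrow, were split. Of 13 tested, 4 had a positive and 9 a negative log2 fold change (median -0.07), and without C3-/- replicate 1 these were 6 and 7 (median -0.42). With all tumors, 2 had genotypes that did not overlap, both higher in C3-/- tumors, against 2.28% of all tested genes. Ngp, encoding neutrophilic granule protein, was counted at 5, 4, 27 and 31 reads in WT and at 531, 42, 35 and 63 in C3-/- tumors, which is 3.04 on the log2 scale (SE 0.93, adjusted p = 0.936), and 1.42 without C3-/- replicate 1. Itgb2l, an integrin subunit gene, was found at 2.77 ± 0.742 CPM in WT and 5.72 ± 1.45 CPM in C3-/- tumors, or 1.04 higher on the log2 scale (SE 0.29, adjusted p = 0.933).

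Camp, for the antimicrobial peptide cathelicidin, was counted at 170 reads in C3-/- replicate 1 and at 0 to 19 in the others. Most genes of the list did not follow it. In that tumor 4 of the 14 secondary and tertiary granule genes stood more than 2-fold above the median of the other tumors, with a median ratio of 1.29. The share was 5.26% for all genes with more than 3 reads in some tumor. Hp, for haptoglobin, a plasma protein that the liver also makes, reached 635 CPM in WT replicate 2 and 22.7 to 147 CPM in the other tumors. Chil3, a chitinase-like protein of myeloid cells, was found at 145 ± 66.7 CPM in WT and 138 ± 107 CPM in C3-/- tumors.

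Of 20 tested genes of mature and activated neutrophils, 8 had a positive and 12 a negative log2 fold change, with a median of -0.09. Without C3-/- replicate 1 these were 5 and 15, with a median of -0.32. Il1r2, the decoy receptor for interleukin 1, was found at 12.3 ± 4.74 CPM in WT and 8.10 ± 1.15 CPM in C3-/- tumors (log2 fold change -0.60, adjusted p = 0.971), with every C3-/- tumor below every WT tumor. Siglece, an inhibitory receptor, went the other way, at 2.61 ± 0.399 and 3.97 ± 1.06 CPM (0.60, adjusted p = 0.971, and 0.40 without C3-/- replicate 1), with no overlap either. Hdc, for the histamine-forming enzyme, was found at 8.24 ± 4.24 and 4.54 ± 1.56 CPM (-0.85). The most abundant of the list, Mxd1 and Csf2rb, had log2 fold changes of -0.26 and 0.20.

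Attractants and granulopoietic cytokines were led in abundance by Saa3, an acute-phase protein (106 ± 68.2 CPM in WT, 66.9 ± 39.3 in C3-/-), and Csf1, the macrophage growth factor (39.2 ± 11.3 and 47.6 ± 13.9 CPM). Of 15 tested, 6 had a positive and 9 a negative log2 fold change (median -0.17, and -0.15 without C3-/- replicate 1). The smallest unadjusted p-values were those of Lif, a cytokine of the interleukin 6 family (24.8 ± 6.30 CPM in WT, 36.4 ± 6.26 in C3-/-, log2 fold change 0.55), of Cxcl15 (1.58) and of Ppbp, a chemokine of platelets (-0.99), and each had an adjusted p of at least 0.960. In C3-/- replicate 1 the attractants were near the other tumors, with a median ratio of 0.977 and 1 of 16 more than 2-fold higher.

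Of 14 tested attractant receptors, 7 had a positive and 7 a negative log2 fold change (median 0.02, with or without C3-/- replicate 1). After Csf3r, the smallest unadjusted p-values were those of Ltb4r1, the leukotriene B4 receptor (3.59 ± 1.76 CPM in WT, 2.20 ± 0.944 in C3-/-, log2 fold change -0.69), and of Csf2rb, the shared beta chain of GM-CSF-type receptors (35.8 ± 3.67 and 41.2 ± 10.9 CPM). Il1r1 was the most abundant, at 92.6 ± 8.58 and 89.3 ± 17.0 CPM. The CXC chemokine receptors by which blood neutrophils are drawn into tissue, chosen after their values were seen, were counted at 20 to 85 reads for Cxcr2 and at 0 to 1 for Cxcr1.

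Of 8 tested transcription factors of the lineage, 6 had a positive and 2 a negative log2 fold change (median 0.05), and without C3-/- replicate 1 these were 4 and 4 (median 0.01). Cebpd, a C/EBP protein, was found at 46.0 ± 5.83 CPM in WT and 61.3 ± 12.1 CPM in C3-/- tumors, with every C3-/- tumor above every WT tumor (log2 fold change 0.41, SE 0.16, adjusted p = 0.971, and 0.28 without C3-/- replicate 1). Spi1, which encodes PU.1, was found at 19.7 ± 2.90 and 23.1 ± 10.4 CPM. Stat3, which relays the signal of the G-CSF receptor, and Runx1 were the most abundant and had log2 fold changes of -0.12 and -0.03.

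Of 14 tested S100 genes, 4 had a positive and 10 a negative log2 fold change (median -0.14, and -0.33 without C3-/- replicate 1). S100a7a, a psoriasin-like gene of epithelia, was counted at 3, 2, 4 and 10 reads in WT and at 21, 20, 16 and 14 in C3-/- tumors, with no overlap and a log2 difference of 1.79 (SE 0.43, adjusted p = 0.933). S100a3 was found at 1.01 ± 0.352 and 0.548 ± 0.173 CPM (-0.85). The most abundant S100 genes, S100a6 and S100a11, which many cell types express, had log2 fold changes of -0.40 and -0.20, and of -0.69 and -0.40 without C3-/- replicate 1.

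**Figure D5:**
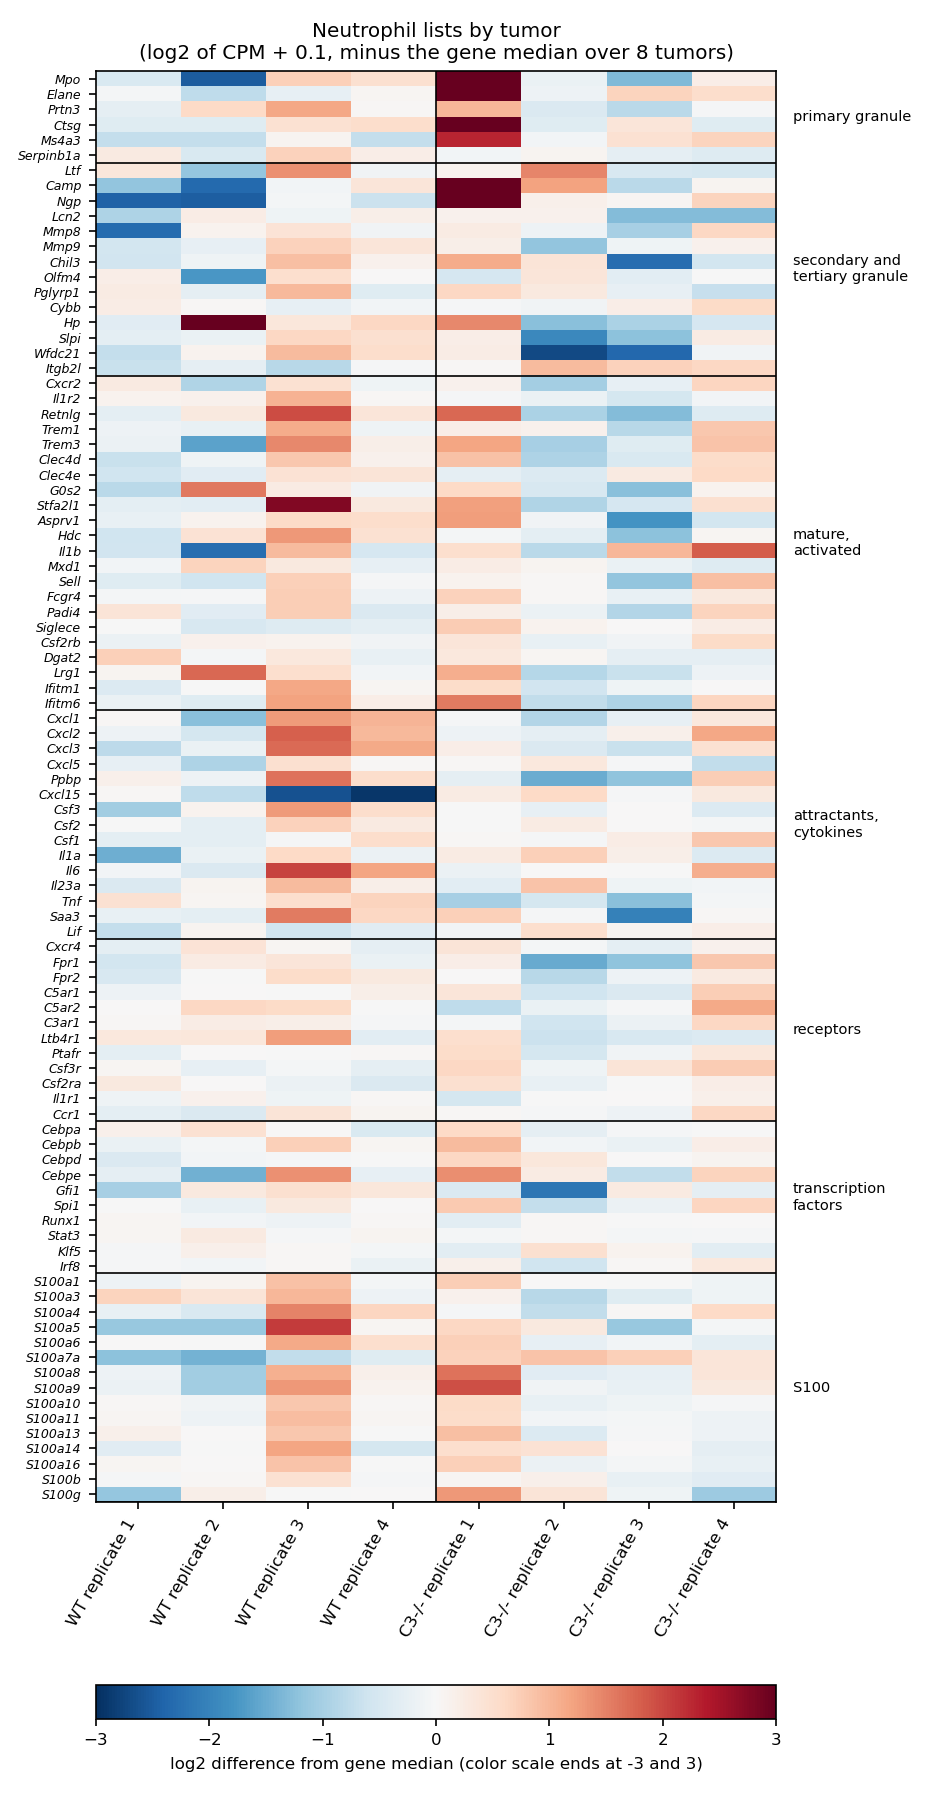
Genes of the 7 neutrophil lists with at least 10 reads in some tumor, 1 line per gene and 1 column per tumor. Color gives log2 of CPM plus 0.1 minus the gene's median over the 8 tumors, and ends at -3 and 3. The darkest red cells include those of Mpo, Elane, Ctsg, Ngp and Camp in C3-/- replicate 1 and that of Hp in WT replicate 2, and much of the attractant and S100 lists is red in WT replicate 3.

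Markers of other cells were compared in WT replicate 3 and C3-/- replicate 1, the 2 tumors with the most calprotectin. Red cell and platelet markers summed to 2181 CPM in WT replicate 3 and 1193 CPM in C3-/- replicate 1, against 178 to 670 CPM in the other 6. All 11 acinar genes were highest in C3-/- replicate 1. Monocyte and macrophage markers summed to 2225 CPM in that tumor and 2071 CPM in C3-/- replicate 4, the highest sums, and 7 of the 14 were highest in the former.

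Eosinophil, basophil and mast cell markers summed to 97.3 CPM in C3-/- replicate 1, inside the range of 83.1 to 168 CPM over the other tumors. Il5ra made up 66.2 CPM of that sum. Taken singly, 3 of 12 of these genes stood more than 2-fold above the median of the other tumors there, at a median ratio of 1.003. The share was 5.26% for all genes with more than 3 reads in some tumor. Squamous epithelial genes summed to 288 CPM there and to 307 CPM in WT replicate 3, with 119 to 285 CPM in the others. Lymphocyte markers were scarce, at 2.38 to 9.87 CPM, with the highest sum in C3-/- replicate 1. Hepatocyte genes ranged from 476 to 768 CPM, most of it from Trf. Alb, of the same list, ran from 1 to 840 reads, with the most in a WT tumor. Skeletal muscle genes ranged from 15.4 to 3588 CPM without regard to genotype. The part of blood, marrow-derived cells or adjoining pancreas in the values of the neutrophil genes was not tested.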

How the data were processed

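RNA from 8 KPC tumors was sequenced as poly-A selected, paired-end libraries and mapped to mm39. The paper names STAR 2.5 and HTSeq 0.6.1 for alignment and counting, and the submitters' processing notes name HISAT2 2.0.5. Both name DESeq2 1.20.0. The strand setting was not given in the sources used here. The authors deposited raw read counts per gene, which alone were used. Their normalized counts, FPKM, group means, fold changes and p-values, which hold the study's own DESeq2 comparison, were not used.

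Genotypes were compared with edgeR 4.0.16 in R 4.3.3 (filterByExpr with a minimum count of 10, TMM, quasi-likelihood F test, Benjamini-Hochberg adjustment over 16610 genes). CPM are counts divided by the TMM-scaled library size in M, and SEs are the log2 fold change divided by the root of F. Ly6g, Mpo and Elane, which did not pass the filter, were fitted without it. Genes were compared singly by an exact permutation test (two-sided, log2 of CPM plus 0.1). DESeq2 1.42.0, limma-voom (limma 3.58.1), other filters and scalings, the replicate number as a block, and each tumor left out in turn were alternatives. The scripts were tested on simulated data.

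The members and lists were chosen with earlier results of these data known. Named genes were the members, C3, Ptprc, in each of the 7 neutrophil lists the 3 with the smallest p and the 2 with the highest mean CPM, and the 10, 5 and 5 genes most like S100a9, Csf3r and Csf3. Ctsg, Ms4a3, Camp, Cxcr1, Cxcr2, Il5ra, Alb and Trf were added after their values were seen. Bpi, Azu1, Mrgpra2a, BC100530, Il17a and Epx were not analysed here. The labels number the replicates but do not tie each to a mouse, so p-values measure the spread between these samples. Counts are of read pairs without molecular identifiers, and intervals cover counting error only. Gene positions are those of the deposited table, and 29674 of its 29968 identifiers were found in GENCODE vM39.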

Additional observations from a re-analysis of the deposited data

Results flagged for a closer look

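Among the named genes, 3 of the 76 groups of 4 tumors examined held a tumor far from the other 3 of its genotype by Dixon's test on log2 of CPM plus 0.1, where chance gives about 1 in 20, or 3.8. None of them was a member on that scale. On CPM without the log, a scale added after seeing the data, 12 groups held such a tumor, and 4 of these were the C3-/- groups of S100a9, Ly6g, Mpo and Elane, each with C3-/- replicate 1 far above the rest. The 3 on the log scale were these. Il1r2 was at 19.4 CPM in WT replicate 3, against 9.62 to 10.2 CPM in the other WT tumors. Runx1 was at 144 CPM in C3-/- replicate 1, against 177 to 185 CPM in the other C3-/- tumors. S100a11 was at 1371 CPM in C3-/- replicate 1, against 839 to 892 CPM in the other C3-/- tumors.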

How the results depend on the processing

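No member was called under any alternative run for it (16 at most), and 135 of 150 member fold changes kept their direction. Over all genes edgeR called 0, DESeq2 called 16, leaving out 1 tumor gave 0 to 4 (4 without C3-/- replicate 1), and DESeq2 without that tumor, chosen after seeing the data, called 111, among them 1 gene of the neutrophil lists, Itgb2l. C3 passed only with DESeq2, at -1.42 and, without C3-/- replicate 1, -1.41 (adjusted p = 1.28e-05 and 4.45e-06). The pairs that passed rose from 1 to 3 after centring on genotype, by p-values that can be too small. Without C3-/- replicate 1 the log2 fold changes turned to -0.25 for S100a8, -0.29 for S100a9 and -0.36 for Mpo by edgeR and to -0.25, -0.30 and -0.37 by DESeq2. With 1 tumor left out they ranged from -0.25 to 0.85 for S100a8, from -0.29 to 1.07 for S100a9, from -0.36 to 2.24 for Mpo, from -2.34 to 0.48 for Ly6g, from -0.66 to 0.16 for Fpr1, from -0.44 to -0.085 for Fpr2, from -0.99 to -0.21 for Csf3 and from -0.74 to 0.019 for Cd177. Mean log2 differences of the exact tests turned sign for S100a8 (without WT replicate 2 or C3-/- replicate 1), S100a9 (without C3-/- replicate 1) and Ly6g (without WT replicate 1 or C3-/- replicate 3), with ranges of -0.091 to 0.69, -0.063 to 0.84 and -0.97 to 0.034. The cause was not tested. voom and the filter of 10 counts in every tumor could not be fitted for Ly6g, Mpo and Elane, nor that filter for Csf3. With the replicate number as a block edgeR called 0 genes. The numbers share only a number, as same-numbered tumors' deviations correlated at -0.03, 0.49, -0.36 and 0.59. Depth limits Csf3, Ly6g, Mpo and Elane, with a few reads in most tumors.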
